A study of Mus musculus with 9 samples.

Results

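The genes described here are 33 genes of cholesterol synthesis, uptake and efflux, chosen by name from the 57238 rows of a gene table of mouse bone marrow-derived dendritic cells (BMDCs). They comprise 8 enzymes of the mevalonate and isoprenoid steps, 11 enzymes from squalene to cholesterol, 4 genes that control the transcription factor SREBP2, 5 genes of uptake and intracellular handling, and 5 genes of LXR (liver X receptor) signaling, efflux and oxysterol formation. Each of the 33 symbols was found once in the table. The BMDCs came from femurs of wildtype C57BL/6 mice 8 to 10 weeks of age and were cultured in GM-CSF at 20 ng/ml, over 6 days by the labels and over 7 days by the study's methods. Control (CTR) BMDCs got no exosomes, NE-treated BMDCs got exosomes that NIH 3T3 cells had shed, which are mouse fibroblasts not derived from a cancer, and TDE-treated BMDCs got tumor cell exosomes, without a label that names the tumor line. The labels give 24 h of treatment, and each of the 3 groups had 3 libraries. Nothing in the labels says whether the libraries of a group came from separate cultures or mice, so p-values measure the spread between these libraries, which may be technical. The comparisons ask what tumor exosomes did to the RNA of these genes, against no exosomes and against exosomes of normal cells.

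Cells make cholesterol from acetyl-CoA through mevalonate, isoprenoid diphosphates, squalene and lanosterol. When membrane cholesterol of the endoplasmic reticulum is low, SCAP escorts SREBP2 to the Golgi, where it is cut and released to switch on most of these enzymes, and INSIG proteins hold it back when sterol is plentiful. Oxysterols activate LXR, which drives the exporters ABCA1 and ABCG1, so in macrophages and dendritic cells synthesis and efflux often move in opposite directions.

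Promoter sequences of the synthesis enzymes were looked at first, because these genes share a regulator. RefSeq windows of build GRCm38.p6 were at hand for 27 of the 33 genes, and none was used for Fdps, Fdft1, Sqle, Stard4, Npc1 and Abcg1. In the 250 bases upstream of each start, 2 sets of letters were searched on both strands, namely CACCNCAC, a core of the sterol regulatory element, and CCAAT, the box of the factor NF-Y, and the letters of one set cannot hold the other. CCAAT was found for 15 of 16 synthesis enzymes with a window (93.8%) and for 6 of 11 other members (54.5%), against 40.7% of 10350 tested genes with a window and 33.8% of all 32851 windows. CACCNCAC was found for 3 of the 16 synthesis enzymes (18.8%), Hmgcs1, Hsd17b7 and Acat2, and for none of the 11 other members, against 6.74% of tested genes and 5.37% of all windows. A match of letters is a description of the window, not a bound site, and windows of longer reach were not searched. Other letters of the sterol regulatory element were not searched either. All shares were counted upstream of RefSeq starts. For Cyp51, Idi1, Msmo1, Dhcr7 and Tm7sf2 every CCAAT match lay inside the gene as placed by GENCODE, whose start is farther upstream. The following upstream windows are shown to set the 3 enzymes with CACCNCAC beside Lss, which fell against NE-treated BMDCs, Mvd, which did not pass, and the exporter gene Abca1. They lie at chr13:119690101-119690350 (plus strand) for Hmgcs1, chr1:169969242-169969455 (minus strand) for Hsd17b7, chr17:12960748-12960975 (minus strand) for Acat2, chr10:76531355-76531587 (plus strand) for Lss, chr8:122443423-122443672 (minus strand) for Mvd and chr4:53159896-53160145 (minus strand) for Abca1. Each is written 5′ to 3′ and stops where the gene begins in RefSeq or in GENCODE, whichever is farther upstream, and capitals mark the matches on either strand (CCAAT reads ATTGG on the other strand).
Hmgcs1: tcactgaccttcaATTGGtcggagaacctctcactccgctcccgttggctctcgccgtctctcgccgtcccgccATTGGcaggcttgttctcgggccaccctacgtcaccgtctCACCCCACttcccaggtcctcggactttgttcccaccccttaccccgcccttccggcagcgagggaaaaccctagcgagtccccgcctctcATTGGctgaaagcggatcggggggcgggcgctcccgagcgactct
Hsd17b7: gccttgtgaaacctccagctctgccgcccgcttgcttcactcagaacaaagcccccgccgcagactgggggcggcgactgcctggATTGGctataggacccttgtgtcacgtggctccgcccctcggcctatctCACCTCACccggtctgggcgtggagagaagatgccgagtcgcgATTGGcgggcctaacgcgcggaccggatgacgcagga
Acat2: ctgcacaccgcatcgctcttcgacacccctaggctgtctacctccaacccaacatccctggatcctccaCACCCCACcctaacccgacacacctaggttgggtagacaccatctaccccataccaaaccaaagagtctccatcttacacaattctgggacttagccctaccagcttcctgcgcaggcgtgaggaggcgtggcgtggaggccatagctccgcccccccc
Lss: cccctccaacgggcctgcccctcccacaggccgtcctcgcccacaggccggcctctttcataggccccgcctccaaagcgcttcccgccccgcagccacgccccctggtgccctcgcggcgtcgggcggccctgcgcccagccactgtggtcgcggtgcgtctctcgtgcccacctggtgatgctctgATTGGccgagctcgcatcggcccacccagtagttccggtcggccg
Mvd: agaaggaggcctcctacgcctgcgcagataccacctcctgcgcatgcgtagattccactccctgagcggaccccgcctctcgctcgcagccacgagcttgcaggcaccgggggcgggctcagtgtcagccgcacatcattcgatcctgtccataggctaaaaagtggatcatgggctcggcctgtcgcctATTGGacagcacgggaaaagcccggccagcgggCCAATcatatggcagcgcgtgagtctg
Abca1: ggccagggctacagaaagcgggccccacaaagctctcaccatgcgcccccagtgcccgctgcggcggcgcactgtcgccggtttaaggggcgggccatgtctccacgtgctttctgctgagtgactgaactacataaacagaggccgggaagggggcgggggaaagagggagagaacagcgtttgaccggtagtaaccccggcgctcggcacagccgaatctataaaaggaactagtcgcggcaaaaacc
The shown windows hold 1 match of CACCNCAC each for Hmgcs1, Hsd17b7 and Acat2. CCAAT appears 3 times for Hmgcs1, in 2 places each for Hsd17b7 and Mvd and in 1 place for Lss, and neither set of letters appears for Abca1. Cyp51, Idi1 and Msmo1, whose RNA fell by large factors, had 1, 2 and 3 matches of CCAAT and none of CACCNCAC upstream of the RefSeq start. None of these matches lay upstream of the GENCODE start, where the windows shown above stop.

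The libraries held 17469782 to 21092943 estimated reads on genes. A floor of 3 reads was 0.142 to 0.172 CPM (counts per 1000000 reads of a library), with counting error only behind it. CPM values below were scaled by TMM, a normalization of library sizes. CTR replicate 1 stood apart from the other libraries. Its correlation with them across genes was 0.827 to 0.8995, while the lowest among the other 8 was 0.942, and its TMM factor was 0.751. For 10 members it lay above all other 8 libraries and for 10 below them. Of 13 members with a deposited gene length under 2000 bases, 9 were higher in it than the mean of the other CTR libraries (median log2 difference 0.71, against 0.83 over all tested genes of such length), and of 8 members of 4000 bases and over, 1 was higher (median -0.66, against -0.79). Fold changes against CTR are therefore given with and without this library for the members described one by one (SE only for the fit of all libraries), and those against NE where its absence changes the call. What part it had in the results was not tested. Of the other 8 libraries, NE replicate 3 correlated best with CTR replicate 1 (0.8995). The sample quality weight that limma voom gave CTR replicate 1 was 0.0269, the lowest of all libraries, against 2.48 and 0.575 for the other CTR libraries. The voom fit thus nearly left this library out, so voom and the fit without CTR replicate 1 are not separate checks. For NE replicate 3 the weight was 0.28, against 2.42 and 2.66 for the other NE libraries. Defining markers of dendritic cells were present, with all 13 of 13 listed genes tested, among them Itgax at 149 CPM and Flt3 at 14.1 CPM on average in CTR.

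**Figure D1:**
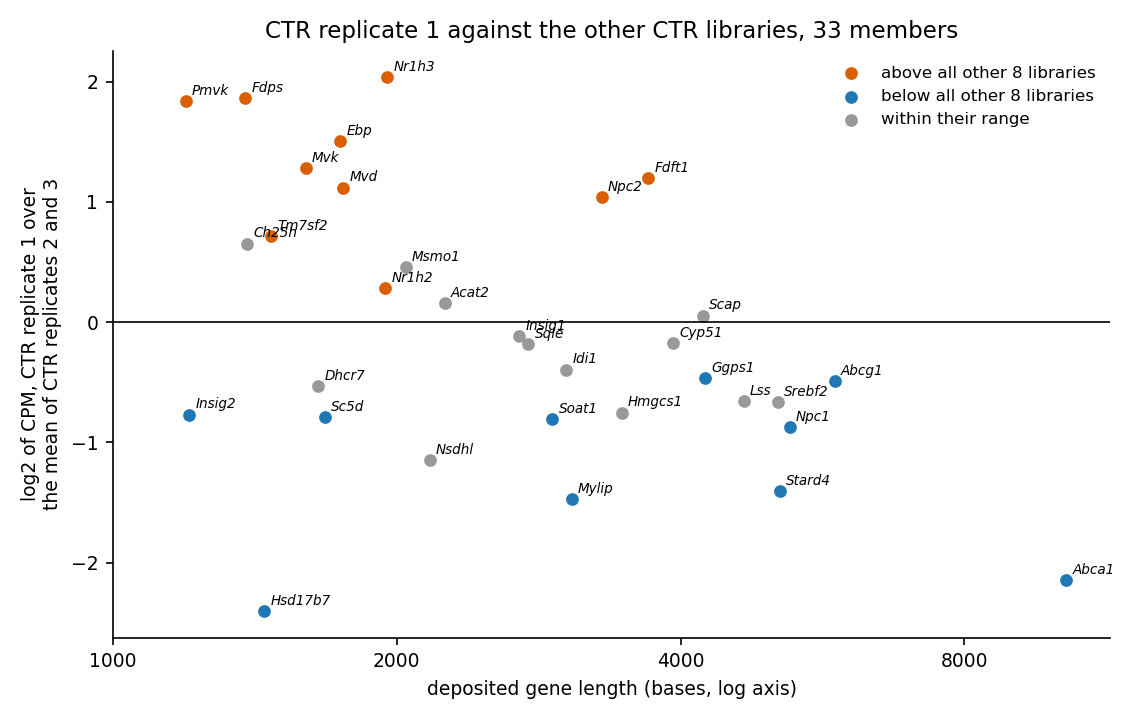
Each point is 1 of the 33 members, with its deposited gene length in bases on a log axis and the log2 ratio of its CPM in CTR replicate 1 to the mean of CTR replicates 2 and 3. Short genes such as Nr1h3, Fdps and Pmvk lie above 0 and long ones such as Abca1 and Stard4 below. Of the genes under 2000 bases, Hsd17b7, Sc5d, Insig2 and Dhcr7 lie below 0.

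With tumor exosomes, RNA of 9 of the 19 cholesterol synthesis enzymes, all tested, fell against CTR and none rose. A gene is said to have fallen, risen or passed at an adjusted p under 0.05 in the quasi-likelihood fit of edgeR to all 9 libraries, unless another tool or a left-out library is named. Of the 19 enzymes, 18 had a log2 fold change below 0 against CTR. Against NE-treated BMDCs 12 of 19 fell, none rose and 16 of 19 were below 0. The median log2 fold change of the 19 was -1.08 against CTR and -0.91 against NE-treated BMDCs, beside -0.055 and -0.024 over all 15028 tested genes. Over all 32 members tested, 10 fell and 1 rose against CTR, where 9.34% of all tested genes fell and 7.57% rose. Against NE-treated BMDCs 16 of 32 fell and none rose, where 7.21% of all tested genes fell and 6.73% rose. In these bulk libraries, fewer cells that make a transcript and less transcript per cell cannot be told apart.

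The counts depended on the libraries and the tool used. Of the synthesis enzymes, 4 to 15 fell against CTR and 6 to 15 against NE-treated BMDCs when single libraries were left out. Without CTR replicate 1, 15 fell in both and 1 rose, Mvd, where 18.0% and 21.5% of all tested genes fell. The fewest enzymes fell without TDE replicate 3, where 3.68% and 3.03% of all tested genes fell. Without CTR replicate 1, 19 of 32 members fell and 4 rose against CTR (all tested genes 18.0% and 16.4%), and 20 fell and 3 rose against NE-treated BMDCs (21.5% and 19.2%). Without TDE replicate 2 or 3, 6 and 5 members fell against CTR (all tested genes 3.85% and 3.68%), and without any 1 NE or TDE library from 7 to 10 fell against NE-treated BMDCs (3.03% to 4.196%). DESeq2 gave 16 members that fell and 1 that rose against CTR (all tested genes 15.1% and 11.6%), and 16 and 2 against NE-treated BMDCs (9.95% and 10.2%). By limma voom with sample quality weights 21 fell and 6 rose against CTR (26.7% and 25.8%), and 24 fell and 4 rose against NE-treated BMDCs (28.3% and 27.0%), so that the shares of members that rose by voom were below those of all genes. The TDE libraries lay below all 3 CTR libraries for 16 of 33 members (21.8% of all tested genes) and below all 3 NE libraries for 22 (27.7%). Idi1, Sqle, Cyp51 and Msmo1 passed the test against CTR under all 18 alternatives tried, and these 4 with Hmgcs1, Dhcr7 and Scap against NE-treated BMDCs.

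**Figure D2:**
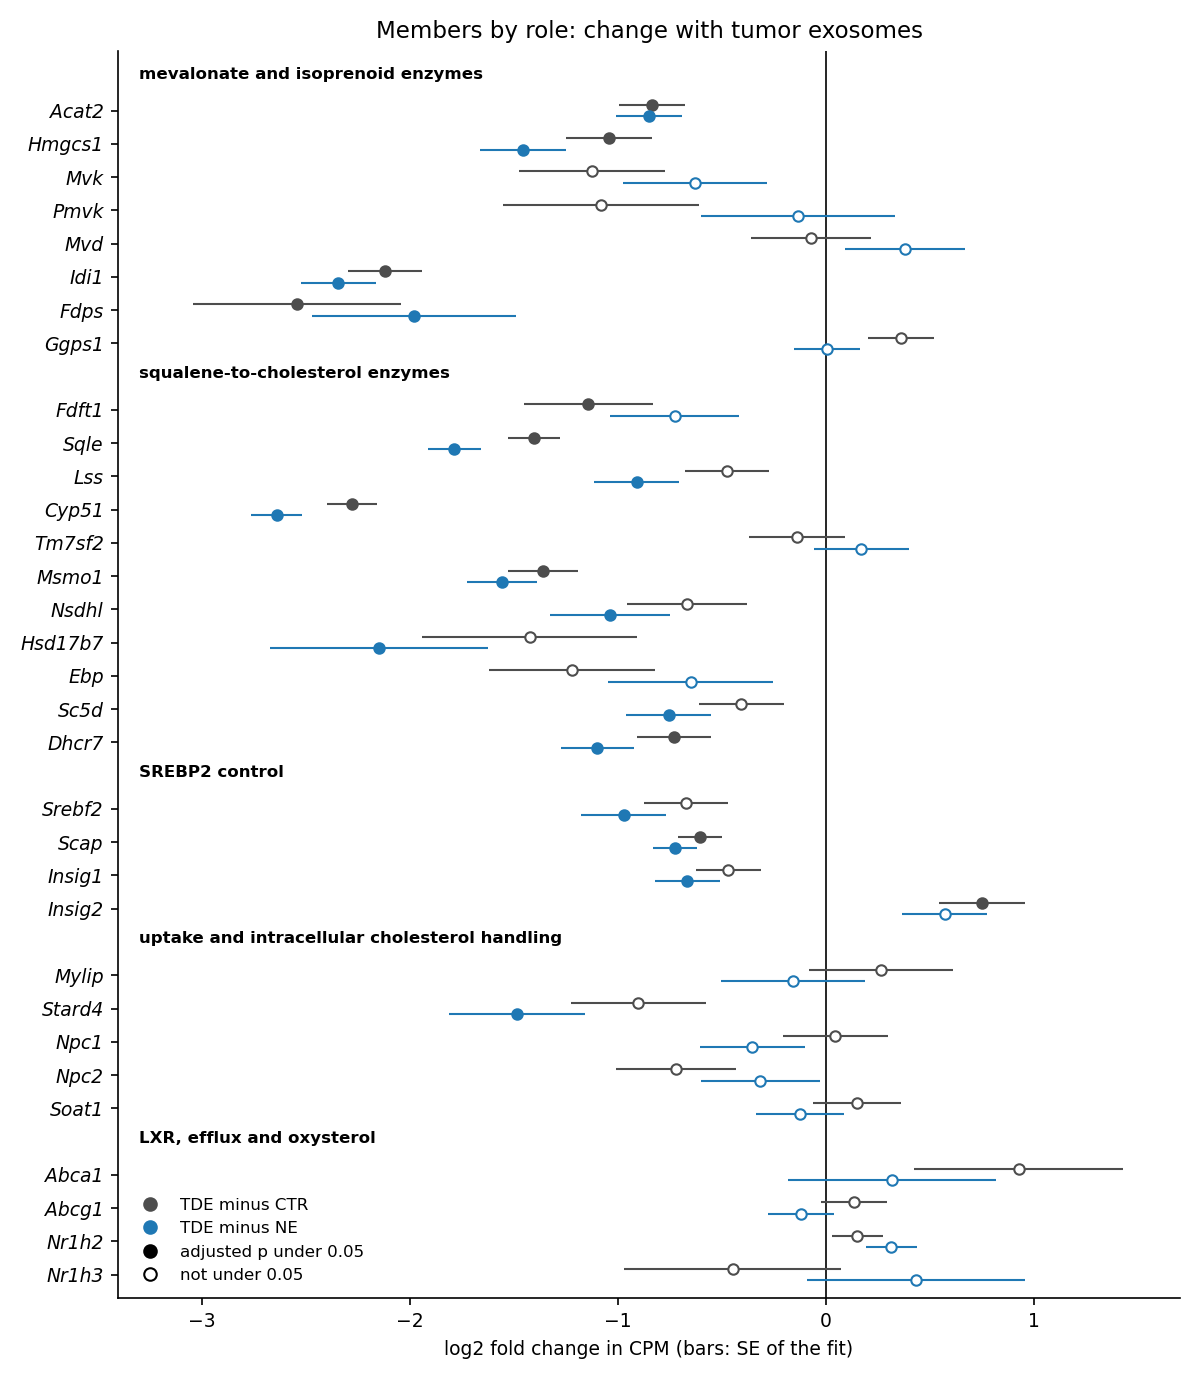
Log2 fold changes of the 32 tested members, by role, with bars for the SE of the fit, for TDE against CTR (grey) and TDE against NE (blue); filled points have an adjusted p under 0.05. Most synthesis enzymes lie left of 0 in both comparisons, while Insig2 lies to the right. The LXR and efflux genes lie around 0 or to its right, apart from Nr1h3 against CTR at -0.45 ± 0.52.

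In the mevalonate and isoprenoid steps, 4 of 8 enzymes fell in both comparisons. Of all tested genes 9.34% fell against CTR and 7.21% against NE-treated BMDCs. The first of the mevalonate steps joins acetyl-CoA units. Acat2, the thiolase of this step, stood at 10.8, 9.39 and 9.99 CPM in CTR, 10.4, 9.27 and 10.8 CPM in NE-treated and 6.37, 5.68 and 4.86 CPM in TDE-treated BMDCs. All 3 TDE libraries were below the other 6, with a log2 fold change of -0.84 ± 0.16 (SE of the fit, 3 libraries a group, as below) against CTR (adjusted p = 0.00963), -0.79 without CTR replicate 1 (adjusted p = 0.00224) and -0.85 ± 0.16 against NE-treated BMDCs (adjusted p = 0.00946). Hmgcs1 (chr13:119690379-119708260), which encodes HMG-CoA synthase, stood at 63.7, 109 and 105 CPM in CTR, 119.7, 119 and 132 CPM in NE-treated and 48.2, 44.8 and 42.2 CPM in TDE-treated BMDCs. Its TDE libraries were again below all others, and it was 2.06-fold lower than in CTR (-1.04 ± 0.21, adjusted p = 0.0114) and 2.74-fold lower than in NE-treated BMDCs (-1.46 ± 0.21, adjusted p = 0.00288). The change against CTR was -1.26 without CTR replicate 1 (adjusted p = 1.04e-05).

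Idi1 (chr13:8885501-8892451) encodes the isomerase that makes the second of the isoprenoid building blocks. It stood at 71.5, 97.4 and 90.6 CPM in CTR, 91.1, 92.8 and 119 CPM in NE-treated and 21.9, 19.5 and 18.3 CPM in TDE-treated BMDCs, with every TDE library far under the lowest of the other 6. The fold change was -2.12 ± 0.18 against CTR (adjusted p = 0.000297), or 4.34-fold lower, and -2.34 ± 0.18 against NE-treated BMDCs (adjusted p = 0.000163), or 5.07-fold lower, with -2.25 without CTR replicate 1 (adjusted p = 4.73e-06) against CTR. Fdps, farnesyl diphosphate synthase, stood at 178, 53.9 and 44.2 CPM in CTR, 55.7, 57.7 and 73.1 CPM in NE-treated and 16.4, 14.8 and 16.2 CPM in TDE-treated BMDCs. The TDE libraries lay within a narrow range below all others, and CTR replicate 1 was far above the remaining ones. The fold change was -2.54 ± 0.50 with it (adjusted p = 0.0114) and -1.64 without it (adjusted p = 3.54e-05), and -1.98 ± 0.49 against NE-treated BMDCs (adjusted p = 0.0308).

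Some of these calls ended when 1 NE or TDE library was left out, where fewer of all tested genes fell too. In such fits 3.68% to 6.92% of all tested genes fell against CTR and 3.03% to 4.196% against NE-treated BMDCs. Without TDE replicate 3 the adjusted p of Acat2 was 0.0537 against CTR and 0.0539 against NE-treated BMDCs, and that of Hmgcs1 against CTR was 0.0573 to 0.0647 without TDE replicate 2 or 3. For Fdps it was 0.0542 to 0.0567 against CTR without any 1 TDE library and 0.0758 to 0.117 against NE-treated BMDCs without any 1 NE or TDE library. The other 4 enzymes, Mvk, Pmvk, Mvd and Ggps1, passed neither test, with log2 fold changes between -1.12 and 0.36 with CTR as reference and between -0.63 and 0.38 with NE. Mvk, mevalonate kinase, had the lowest of these at -1.12 ± 0.35 (adjusted p = 0.0607), and it fell against CTR under 6 of 18 alternatives, namely DESeq2, library totals, voom, length offsets and the fits without CTR replicate 1 (-0.57, adjusted p = 0.0152) or CTR replicate 3. Against NE-treated BMDCs it stood at -0.63 ± 0.35 (adjusted p = 0.308) and -0.64 without CTR replicate 1 (adjusted p = 0.00471). Ggps1, geranylgeranyl diphosphate synthase, had the highest at 0.36 ± 0.16 (adjusted p = 0.147) and 0.21 without CTR replicate 1 (adjusted p = 0.133). Mvd, the decarboxylase that yields isopentenyl diphosphate, had the highest mean CPM of them and stood at 169, 78.9 and 76.4 CPM in CTR, 77.6, 76.0 and 82.7 CPM in NE-treated and 95.5, 109 and 103 CPM in TDE-treated BMDCs. Its TDE libraries were above all 3 NE libraries, at 0.38 ± 0.29 (adjusted p = 0.49) and, as a rise, 0.37 without CTR replicate 1 (adjusted p = 0.00355). Against CTR its fold change turned from -0.074 ± 0.29 (adjusted p = 0.867) to 0.39 (adjusted p = 0.00626) without CTR replicate 1, where it rose. Pmvk, phosphomevalonate kinase, overlapped between TDE and both other groups, at -1.08 ± 0.47 against CTR (adjusted p = 0.142), -0.20 without CTR replicate 1 (adjusted p = 0.29) and -0.13 ± 0.47 against NE-treated BMDCs (adjusted p = 0.924).

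**Figure D3:**
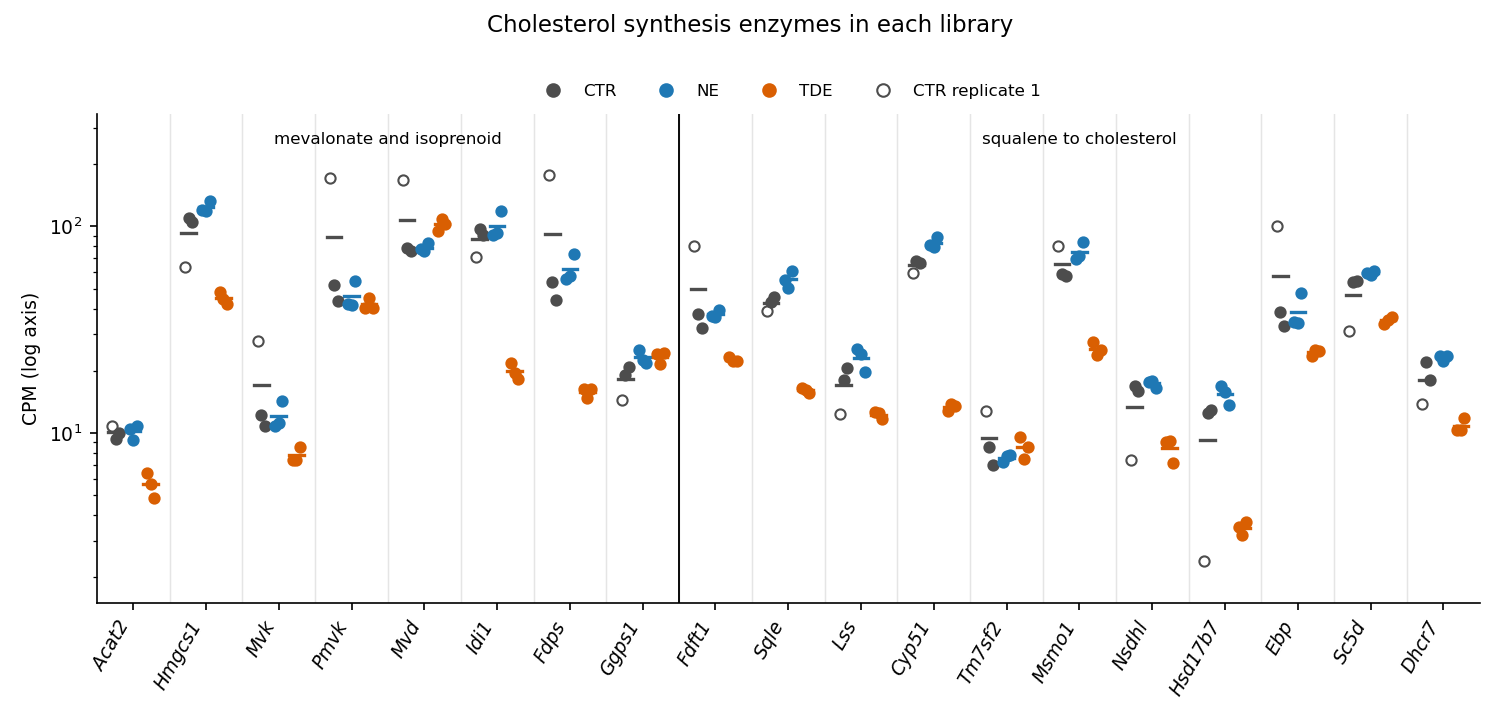
CPM on a log axis of the 19 synthesis enzymes in each of the 9 libraries, in pathway order; points are libraries, short lines are group means, and the open point is CTR replicate 1. TDE libraries lie below both other groups for enzymes such as Hmgcs1, Idi1, Fdps, Sqle, Cyp51 and Msmo1, and level with or above them for Pmvk, Mvd, Ggps1 and Tm7sf2, apart from CTR replicate 1.

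From squalene to cholesterol, 5 of 11 enzymes fell against CTR and 8 of 11 against NE-treated BMDCs (all tested genes 9.34% and 7.21%). Fdft1 encodes squalene synthase, the first enzyme committed to sterols, and stood at 80.2, 37.6 and 32.3 CPM in CTR, 36.8, 36.5 and 39.2 CPM in NE-treated and 23.4, 22.3 and 22.2 CPM in TDE-treated BMDCs. The TDE libraries were below all others, at -1.14 ± 0.31 against CTR (adjusted p = 0.0403), -0.63 without CTR replicate 1 (adjusted p = 0.000653) and -0.73 ± 0.31 against NE-treated BMDCs, where Fdft1 did not pass (adjusted p = 0.179). Under 4 of 18 alternatives it fell against NE-treated BMDCs. These were library totals, only the 6 libraries compared, voom and the fit without CTR replicate 1 (-0.73, adjusted p = 0.000117). Sqle (chr15:59315077-59331192), squalene epoxidase and a rate-limiting enzyme of this branch, stood at 39.0, 43.2 and 45.3 CPM in CTR, 54.9, 50.5 and 60.9 CPM in NE-treated and 16.5, 16.2 and 15.6 CPM in TDE-treated BMDCs. It fell 2.64-fold against CTR (-1.40 ± 0.13, adjusted p = 0.000374) and 3.45-fold against NE-treated BMDCs (-1.78 ± 0.13, adjusted p = 0.000111), with no overlap between the groups and -1.47 without CTR replicate 1 (adjusted p = 8.32e-06) against CTR. Lss, which closes the sterol rings to give lanosterol, stood at 12.3, 18.1 and 20.7 CPM in CTR, 25.4, 24.1 and 19.7 CPM in NE-treated and 12.6, 12.4 and 11.8 CPM in TDE-treated BMDCs. Its TDE libraries overlapped with CTR only through CTR replicate 1, and it passed against NE-treated BMDCs (-0.91 ± 0.20, adjusted p = 0.0203) and not against CTR (-0.47 ± 0.20, adjusted p = 0.136). Against CTR, Lss fell under 3 of 18 alternatives, namely voom, length offsets and the fit without CTR replicate 1 (-0.67, adjusted p = 0.00323).

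Cyp51 (chr5:4081145-4104746), the lanosterol demethylase, had the lowest adjusted p of all members in both comparisons. It stood at 59.8, 68.3 and 66.4 CPM in CTR, 81.5, 79.8 and 88.8 CPM in NE-treated and 12.8, 13.8 and 13.6 CPM in TDE-treated BMDCs. The TDE libraries spanned a narrow range, 4.84-fold below CTR (-2.28 ± 0.12, adjusted p = 6.12e-05) and 6.23-fold below NE-treated BMDCs (-2.64 ± 0.12, adjusted p = 3.20e-05), and the change against CTR was -2.34 without CTR replicate 1 (adjusted p = 4.28e-07). Msmo1 (chr8:64718139-64733792) and Nsdhl encode enzymes that remove the methyl groups at the next steps. Msmo1 stood at 80.0, 59.1 and 57.3 CPM in CTR, 69.8, 71.8 and 83.8 CPM in NE-treated and 27.7, 23.8 and 25.1 CPM in TDE-treated BMDCs, and fell 2.56-fold against CTR (-1.36 ± 0.17, adjusted p = 0.00149) and 2.94-fold against NE-treated BMDCs (-1.56 ± 0.17, adjusted p = 0.000791). Its change against CTR was -1.20 without CTR replicate 1 (adjusted p = 3.98e-05). Nsdhl stood at 7.42, 16.9 and 15.9 CPM in CTR, 17.7, 17.8 and 16.6 CPM in NE-treated and 9.03, 9.17 and 7.16 CPM in TDE-treated BMDCs. CTR replicate 1 lay among its TDE libraries, and Nsdhl fell against NE-treated BMDCs (-1.04 ± 0.29, adjusted p = 0.0471) but did not pass against CTR (-0.67 ± 0.29, adjusted p = 0.138). Against CTR, Nsdhl fell under 2 of 18 alternatives, namely voom and the fit without CTR replicate 1 (-0.97, adjusted p = 0.000329).

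Hsd17b7 encodes the reductase that completes this demethylation. It stood at 2.41, 12.5 and 12.97 CPM in CTR, 16.8, 15.7 and 13.7 CPM in NE-treated and 3.49, 3.22 and 3.71 CPM in TDE-treated BMDCs, so that CTR replicate 1 was below every other library and the remaining CTR and NE libraries were far above TDE. It fell 4.43-fold against NE-treated BMDCs (-2.15 ± 0.52, adjusted p = 0.0286), and against CTR the change was -1.42 ± 0.52 (adjusted p = 0.0938) with CTR replicate 1 and -1.88 (adjusted p = 1.05e-05) without it. Sc5d, a sterol desaturase, stood at 31.3, 53.5 and 54.7 CPM in CTR, 59.3, 57.9 and 60.6 CPM in NE-treated and 33.8, 35.0 and 36.4 CPM in TDE-treated BMDCs, with the TDE libraries below all NE libraries and above CTR replicate 1. Its change was -0.76 ± 0.20 against NE-treated BMDCs (adjusted p = 0.0431), -0.41 ± 0.20 against CTR (adjusted p = 0.189) and -0.63 without CTR replicate 1 (adjusted p = 0.000223). Dhcr7, the reductase of the last step, stood at 13.9, 22.0 and 18.1 CPM in CTR, 23.7, 22.3 and 23.6 CPM in NE-treated and 10.4, 10.4 and 11.8 CPM in TDE-treated BMDCs. All TDE libraries were below the other 6, at -0.73 ± 0.18 against CTR (adjusted p = 0.0265), -0.89 without CTR replicate 1 (adjusted p = 0.000351) and -1.10 ± 0.18 against NE-treated BMDCs (adjusted p = 0.00495).

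Without any 1 NE or TDE library the adjusted p of Fdft1 against CTR was 0.0671 to 0.134, and that of Hsd17b7 against NE-treated BMDCs 0.0702 to 0.115. Leaving out single libraries also ended the calls of Lss (5 libraries, adjusted p up to 0.0935), Nsdhl (8 libraries, up to 0.182) and Sc5d (7 libraries, up to 0.163) against NE-treated BMDCs and of Dhcr7 against CTR (6 libraries, up to 0.116). Ebp, a sterol isomerase, and Tm7sf2, a sterol reductase, passed neither test. Ebp stood at 57.3 ± 37.8 CPM in CTR, 38.6 ± 7.74 CPM in NE-treated and 24.6 ± 0.838 CPM in TDE-treated BMDCs (mean ± SD, n = 3), and its TDE libraries were below all others (-1.22 ± 0.40, adjusted p = 0.0719, against CTR, -0.54 without CTR replicate 1 (adjusted p = 0.0214), and -0.65 ± 0.40, adjusted p = 0.367, against NE, with -0.66 without CTR replicate 1 (adjusted p = 0.00442)). Without CTR replicate 1, 10 of the 11 enzymes fell against CTR, all but Tm7sf2 (all tested genes 18.0%).

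Levels of different enzymes were compared per length, in CPM per kb of the deposited gene length. In NE-treated BMDCs 7 enzymes stood highest, with Fdps at 45.0 ± 6.90 (mean ± SD, n = 3), Mvd at 44.9 ± 1.99, Pmvk at 38.6 ± 5.92, Msmo1 at 36.8 ± 3.71, Hmgcs1 at 35.7 ± 2.20, Sc5d at 35.3 ± 0.806 and Idi1 at 33.4 ± 5.16 CPM per kb. Except for Mvd and Pmvk, neighbours in that order differed by less than the larger of their SDs. In TDE-treated BMDCs Mvd led at 58.4 ± 3.80 CPM per kb, followed by Pmvk at 35.1 ± 2.21 and Sc5d at 20.9 ± 0.777, each apart from the next by more than their SDs. Of the others of the 7, Hmgcs1 stood at 13.01 ± 0.870, Msmo1 at 12.5 ± 0.984, Fdps at 11.4 ± 0.629 and Idi1 at 6.58 ± 0.599 CPM per kb. Cyp51 went from 21.2 ± 1.22 CPM per kb in NE-treated to 3.40 ± 0.143 CPM per kb in TDE-treated BMDCs, where Lss, Acat2 and Hsd17b7 alone were lower among the synthesis enzymes.

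The genes that control SREBP2 did not move as one. Srebf2 (chr15:82147181-82205379), which encodes SREBP2 itself, stood at 114, 179 and 183 CPM in CTR, 215, 205 and 165 CPM in NE-treated and 107, 92.5 and 99.3 CPM in TDE-treated BMDCs. All TDE libraries were below the other 6. It fell against NE-treated BMDCs, where TDE was 1.96-fold lower (-0.97 ± 0.20, adjusted p = 0.0158), and missed the threshold against CTR (-0.67 ± 0.20, adjusted p = 0.0556), with -0.87 (adjusted p = 0.000493) without CTR replicate 1. Scap, the sterol-sensing escort, stood at 31.5, 29.6 and 31.1 CPM in CTR, 33.6, 34.6 and 32.0 CPM in NE-treated and 19.9, 20.1 and 20.6 CPM in TDE-treated BMDCs. The libraries within each group were close together, CTR replicate 1 included, and Scap fell 1.52-fold against CTR (-0.60 ± 0.11, adjusted p = 0.00733) and 1.65-fold against NE-treated BMDCs (-0.72 ± 0.11, adjusted p = 0.00329). The call against CTR ended when library totals replaced TMM and when low counts were not filtered (adjusted p = 0.0603 for both), and the change was -0.59 without CTR replicate 1 (adjusted p = 0.000451).

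The INSIG genes, which encode the anchors that keep SCAP in the endoplasmic reticulum, had fold changes of opposite sign. Insig1, itself a classical SREBP target, stood at 77.9, 84.2 and 84.9 CPM in CTR, 98.2, 89.2 and 95.7 CPM in NE-treated and 69.7, 47.2 and 61.6 CPM in TDE-treated BMDCs. The TDE libraries were the most variable of the groups but below all others, and Insig1 fell against NE-treated BMDCs (-0.67 ± 0.16, adjusted p = 0.0254), while the change against CTR was -0.47 ± 0.16 (adjusted p = 0.076) and -0.52 without CTR replicate 1 (adjusted p = 0.0192). Insig2 stood at 11.5, 20.4 and 18.9 CPM in CTR, 18.1, 18.6 and 20.8 CPM in NE-treated and 29.6, 27.9 and 28.1 CPM in TDE-treated BMDCs. All TDE libraries were above the other 6, and Insig2 was the only member that rose against CTR in the fit of all libraries (0.75 ± 0.21, adjusted p = 0.0414), with 0.57 ± 0.21 (adjusted p = 0.113) against NE-treated BMDCs and 0.56 without CTR replicate 1 (adjusted p = 0.00062). Without any 1 NE or TDE library the adjusted p of Insig2 was 0.0632 to 0.134, and without CTR replicate 1 its change was 0.53 (adjusted p = 0.00218). The calls of Srebf2 and Insig1 against NE-treated BMDCs each ended without any of 5 single libraries, with adjusted p up to 0.0816 and 0.0988.

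Of the uptake and handling genes 1 of 5 fell against NE-treated BMDCs (all tested genes 7.21%) and none passed against CTR. Stard4, a cytosolic sterol carrier and SREBP target, stood at 17.6, 45.0 and 48.1 CPM in CTR, 54.6, 58.3 and 53.0 CPM in NE-treated and 20.6, 19.6 and 19.1 CPM in TDE-treated BMDCs. Except for CTR replicate 1, the TDE libraries were far below the others, and Stard4 fell 2.80-fold against NE-treated BMDCs (-1.48 ± 0.33, adjusted p = 0.0195), a call that ended without any 1 NE or TDE library (adjusted p 0.0559 to 0.0860). Against CTR the change was -0.90 ± 0.32 (adjusted p = 0.0912), and -1.25 (adjusted p = 9.54e-06) without CTR replicate 1. The other 4, from Mylip, a ubiquitin ligase for lipoprotein receptors, to Npc1, Npc2 and Soat1, had log2 fold changes between -0.72 and 0.26 with CTR as reference and between -0.35 and -0.13 with NE. The upper end with CTR was Mylip at 0.26 ± 0.35 (adjusted p = 0.598), which stood at -0.091 without CTR replicate 1 (adjusted p = 0.62), and Npc1, the lysosomal exporter, stood at 0.045 ± 0.25 (adjusted p = 0.907) and -0.20 (adjusted p = 0.334). Npc2, which hands cholesterol from lysosomal lipoproteins to NPC1, was the most abundant member at 1109 ± 504 CPM in CTR, 838 ± 116 CPM in NE-treated and 674 ± 7.51 CPM in TDE-treated BMDCs (mean ± SD, n = 3), with -0.72 ± 0.29 (adjusted p = 0.119) against CTR, -0.29 without CTR replicate 1 (adjusted p = 0.078) and -0.32 ± 0.29 (adjusted p = 0.583) against NE, where it fell without that library (-0.32, adjusted p = 0.0329). Soat1, which esterifies cholesterol for storage in lipid droplets, was at 338 ± 98.3, 409 ± 7.38 and 375 ± 9.77 CPM in the same order, with 0.15 ± 0.21 (adjusted p = 0.626) against CTR, -0.083 without CTR replicate 1 (adjusted p = 0.368) and -0.13 ± 0.21 (adjusted p = 0.811) against NE.

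**Figure D4:**
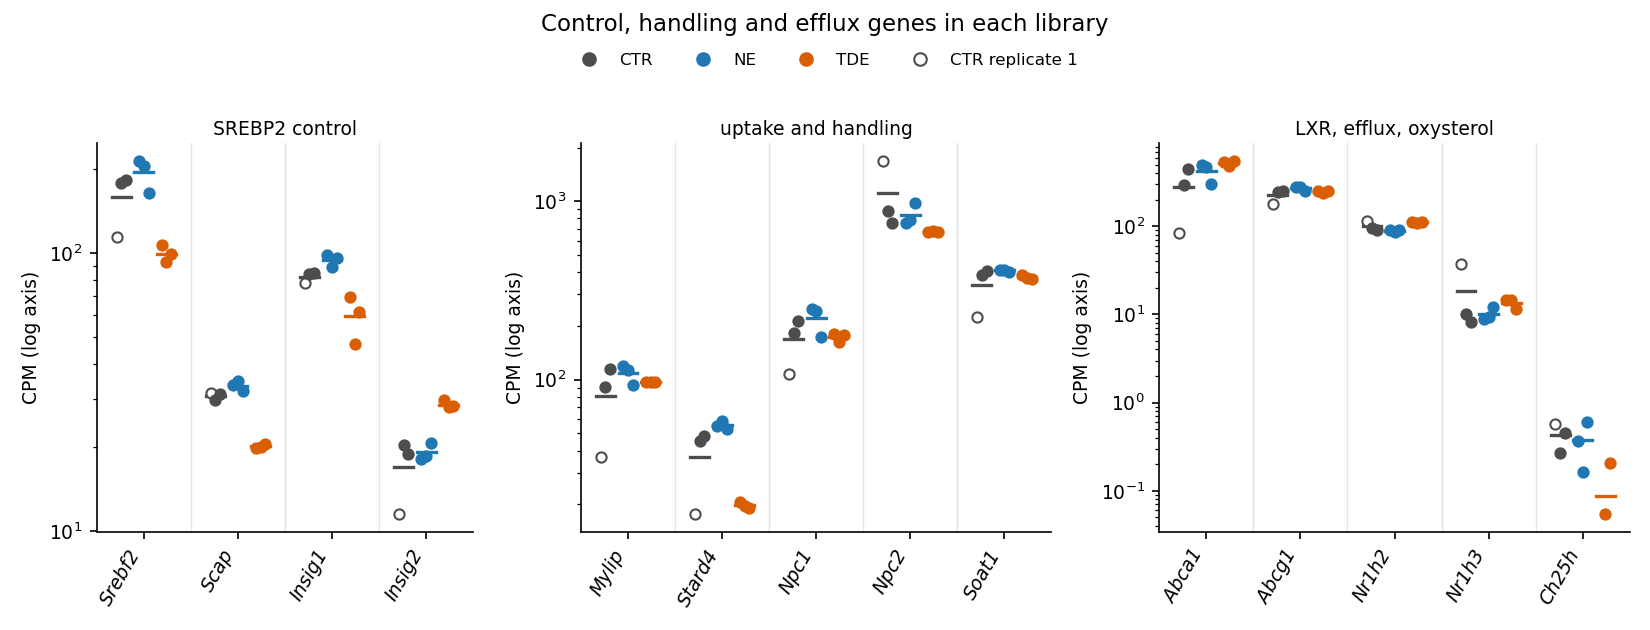
CPM on a log axis of the genes of SREBP2 control, of uptake and handling, and of LXR, efflux and oxysterol formation in each library; points are libraries, short lines group means, and open points CTR replicate 1. Srebf2, Scap, Insig1 and Stard4 are lower and Insig2 higher in TDE than in NE libraries, and the TDE library of Ch25h at 0 reads is not drawn.

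None of the 4 efflux and LXR genes tested passed in either comparison by edgeR over all 9 libraries. By DESeq2 1 of 4, Nr1h2, rose against NE-treated BMDCs (all tested genes 10.2%). By voom 3 of 4, Abca1, Nr1h2 and Nr1h3, rose against CTR (all tested genes 25.8%). Against NE-treated BMDCs 2 rose by voom, Nr1h2 and Nr1h3 (all tested genes 27.0%), and 1 fell, Abcg1 (28.3%). Abca1 (chr4:53030787-53159895), which exports cholesterol to apolipoproteins, stood at 84.0, 296 and 449 CPM in CTR, 489, 474 and 299 CPM in NE-treated and 541, 482 and 552 CPM in TDE-treated BMDCs. The TDE libraries were above all CTR libraries and overlapped with NE, and the change was 0.93 ± 0.50 (adjusted p = 0.22) against CTR, 0.49 (adjusted p = 0.135) without CTR replicate 1, and 0.32 ± 0.50 (adjusted p = 0.792) against NE-treated BMDCs. Abcg1, which exports to mature HDL, stood at 177, 245 and 254 CPM in CTR, 275, 277 and 253 CPM in NE-treated and 251, 238 and 252 CPM in TDE-treated BMDCs. The TDE libraries lay just below all NE libraries and among the CTR libraries, at 0.13 ± 0.16 (adjusted p = 0.557) against CTR, -0.022 without CTR replicate 1 (adjusted p = 0.845) and -0.12 ± 0.16 (adjusted p = 0.736) against NE.

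Nr1h2, which encodes LXR beta, stood at 113, 95.2 and 91.0 CPM in CTR, 90.8, 85.2 and 91.3 CPM in NE-treated and 111, 109 and 112 CPM in TDE-treated BMDCs. Its TDE libraries were above all NE libraries, and the changes were 0.15 ± 0.12 (adjusted p = 0.402) and 0.31 ± 0.12 (adjusted p = 0.144). Without CTR replicate 1, which had the highest value, Nr1h2 rose in both, by 0.24 against CTR (adjusted p = 0.0264) and 0.31 against NE-treated BMDCs (adjusted p = 0.00416). Nr1h3, which encodes LXR alpha, stood at 37.4, 10.1 and 8.17 CPM in CTR, 8.76, 9.27 and 12.0 CPM in NE-treated and 14.6, 14.6 and 11.5 CPM in TDE-treated BMDCs. CTR replicate 1 was far above all other libraries, and the change against CTR turned from -0.45 ± 0.52 (adjusted p = 0.552) with it to 0.56 (adjusted p = 0.0363) without it. Against NE-treated BMDCs it was 0.43 ± 0.52 (adjusted p = 0.704).

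Ch25h, the hydroxylase that makes an LXR-activating oxysterol, had too few reads to be tested across genes. Its libraries held 9, 6 and 8.68 estimated reads in CTR, 7, 3 and 12 in NE-treated and 0, 1 and 4 in TDE-treated BMDCs. The TDE libraries were below all CTR libraries, but no library held over 12 reads, and an exact two-sided permutation test gave p = 0.1 against CTR, the smallest p that 3 against 3 libraries allow, and p = 0.2 against NE-treated BMDCs.

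The summed level of the 19 synthesis enzymes was 627, 373 and 346 CPM per kb in CTR, 386, 382 and 442.5 in NE-treated and 219, 225 and 221 in TDE-treated BMDCs. All TDE libraries were lower than the other 6 and close to each other. The summed level of Abca1 and Abcg1 was 38.6, 70.8 and 87.2 CPM per kb in CTR, 94.9, 93.7 and 72.6 in NE-treated and 95.7, 87.8 and 97.1 in TDE-treated BMDCs, with TDE above all CTR libraries and overlapping NE. The ratio of synthesis to efflux was 2.38 ± 0.162 (SD, n = 3) in TDE-treated, 4.75 ± 1.17 in NE-treated and 8.50 ± 6.76 in CTR BMDCs, with 16.3 in CTR replicate 1 and 5.27 and 3.97 in the other CTR libraries. The median log2 fold change of the 4 LXR and efflux genes tested was 0.14 against CTR and 0.32 against NE-treated BMDCs, beside -1.08 and -0.91 for the synthesis enzymes.

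**Figure D5:**
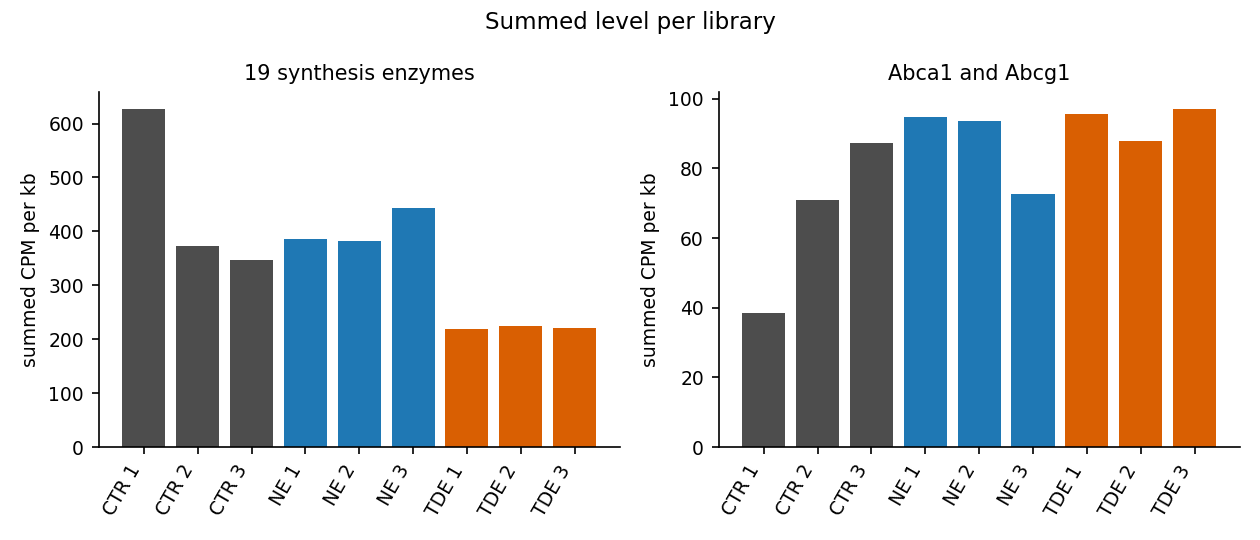
Bars give the summed CPM per kb of gene length in each library for the 19 synthesis enzymes and for Abca1 with Abcg1, coloured by group. The TDE libraries hold the 3 lowest synthesis sums, at 219 to 225 CPM per kb, and efflux sums of 87.8 to 97.1 CPM per kb that overlap with NE.

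Exosomes of NIH 3T3 cells left no member past the threshold. None of the 32 tested members passed between NE-treated and CTR BMDCs by edgeR, DESeq2 or limma voom, and at an unadjusted p under 0.05 by edgeR there were 2, both higher with NEs. These were Sqle at 0.38 ± 0.12 and Cyp51 at 0.36 ± 0.11, each with an adjusted p of 0.659. Of all tested genes 0% passed by edgeR, with 487 at an unadjusted p under 0.05, and 6 passed by DESeq2 and 18 by voom. The log2 fold changes of the 32 lay between -0.95 and 0.72, with 22 above 0 and a median of 0.24. The median of all tested genes was 0.0048. Without CTR replicate 1 the members had a median of 0.12, 28 were above 0, and none passed.

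Among 53 other genes of sterol metabolism tested out of 55 found in the table, 4 fell and 2 rose against CTR (all tested genes 9.34% and 7.57%), and 3 fell and 2 rose against NE-treated BMDCs (7.21% and 6.73%). Without CTR replicate 1, 10 fell and 13 rose against CTR (18.0% and 16.4%), and 13 fell and 14 rose against NE-treated BMDCs (21.5% and 19.2%). Their median log2 fold change was then 0.00046 against CTR and -0.018 against NE-treated BMDCs, and 0.069 and -0.011 in the fit of all libraries. Of the 15 genes of SREBP processing and sterol sensing, 1 fell against CTR. Abcg4, a sterol transporter related to Abcg1, was the only one past the threshold against CTR whose log2 fold change there was 1 or more in size, from 0, 8 and 1 reads in CTR and 4, 6 and 7 in NE-treated to 24, 15 and 36 reads in TDE-treated BMDCs (3.12 ± 0.81, adjusted p = 0.0338, against CTR, and 2.16 ± 0.75, adjusted p = 0.0997, against NE, with 2.15, adjusted p = 0.0115, without CTR replicate 1). The other 5 that passed against CTR were chosen here after their values were seen. Nfyc, a subunit of NF-Y, fell with a log2 fold change of -0.88 ± 0.21, Cyp27a1, a sterol hydroxylase, of -0.66 ± 0.12, Nceh1, a cholesteryl ester hydrolase, of -0.66 ± 0.15, and Lipa, the lysosomal acid lipase, of -0.79 ± 0.17, while Osbpl1a, an oxysterol-binding protein gene, rose with 0.73 ± 0.20. Cyp27a1, Nceh1 and Lipa also fell against NE-treated BMDCs (-0.71 ± 0.12, -0.99 ± 0.15 and -1.04 ± 0.17), where Pggt1b, a prenyltransferase subunit gene, and Gramd1a, a sterol transporter gene, rose (0.73 ± 0.19 and 0.996 ± 0.23).

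Markers of other cells that GM-CSF cultures hold moved with the groups. Of 10 neutrophil markers 8 fell against CTR and 6 against NE-treated BMDCs (all tested genes 9.34% and 7.21%). Their summed level was 7126 to 28837 CPM in CTR, 7507 to 10821 CPM in NE-treated and 3080 to 3377 CPM in TDE-treated BMDCs. All 6 eosinophil and basophil markers fell in both comparisons, from sums of 447 to 1524 CPM in CTR and 475 to 542 CPM in NE-treated to 104 to 127 CPM in TDE-treated BMDCs. Of 10 macrophage markers, 9 of them tested, 1 rose and 2 fell against CTR, and 1 rose and 1 fell against NE-treated BMDCs, with Adgre1 the one that rose, and their sums were 3862 to 4451, 3660 to 4040 and 5065 to 5421 CPM. The 13 dendritic cell markers summed to 5493 to 15243, 5287 to 6491 and 3186 to 3370.5 CPM in the same order. Cd74 alone averaged 4455, 2214 and 867 CPM. Against CTR 6 of them fell, Ccr7, Cd74, H2-Aa, H2-Ab1, H2-Eb1 and Csf2ra, and against NE-treated BMDCs 3, Itgax, H2-Aa and Csf2ra. Flt3, Zbtb46, Batf3, Irf8, Irf4 and Ciita passed neither test, with Flt3, Irf8 and Irf4 above 0 against CTR (0.019, 0.29 and 0.56). The 7 lymphocyte markers summed to 21.3 to 35.6, 18.9 to 24.4 and 10.9 to 11.4 CPM, and 3 fell against CTR and 1 against NE-treated BMDCs. The 7 fibroblast markers summed to 4.94 to 5.39, 4.28 to 6.12 and 7.59 to 8.05 CPM, with Dcn the 1 that rose in both comparisons, and the 6 markers of epithelial or tumor lines, Cldn4 at 0 in every library, to 8.22 to 8.90, 10.9 to 12.7 and 4.37 to 7.05 CPM, with Cdh1 the 1 that fell in both. The part of these shifts in the results for the cholesterol genes was not tested.

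The reads were counted by a program and on a strand that the sources used here do not state, so reads of overlapping genes cannot be told apart from those of these members. Exons of Cyp51 overlap with those of Akap9, Fdft1 with Ctsb, Ggps1 with Arid4b and Npc1 with Rmc1 on the opposite strand, and Tm7sf2 with Vps51 on the same strand. Genes without an assigned function overlap with exons of Hmgcs1, Idi1, Lss, Scap, Npc1 and Ch25h on the opposite strand and of Fdps and Nr1h3 on the same strand.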

How the data were processed

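RNA of 9 BMDC libraries (CTR, NE and TDE, 3 each) was sequenced by the authors, with oligo(dT) and random primers per the methods. The values the authors deposited are estimated counts of reads per gene and library, not normalized and not all whole, beside group means, which were not used. The submitters' processing notes name TopHat2 2.1.1, DESeq2 1.24.0 and R 3.3.1, and the counting program, genome build, annotation and strand setting are not given in the sources used here.

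Counts were rounded, filtered with filterByExpr (15028 of 57238 genes tested), scaled by TMM and tested by edgeR 4.0.16's quasi-likelihood test (R 4.3.3) over all 9 libraries with Benjamini-Hochberg adjustment at 0.05. The SE of a log2 fold change was taken from it and the root of the test's F. CPM used TMM-scaled totals, and levels per kb used the deposited gene lengths. Library totals of 17469782 to 21092943 limit precision by counting error at low counts, and the floor was 3 reads. Ch25h, below the filter, got an exact two-sided permutation test of its CPM (scipy 1.17.1).

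The 33 members and all gene lists were chosen with earlier results of these data known. Values in every library are printed for members past the threshold with TDE and for all genes of SREBP2 control and of LXR and efflux, and other members by range with those of highest mean CPM. Other pathway genes were to be named where the adjusted p against CTR was under 0.05 and the log2 fold change at least 1 in size. Gene positions are of GRCm38 (GENCODE vM21) by gene identifier, and promoters are RefSeq's on GRCm38.p6, matched by symbol. The fit was tested on simulated data. Tried as alternatives were library totals or median-ratio factors, other filters, DESeq2 1.42.0, limma 3.58.1 voom with sample quality weights, only the libraries compared, a replicate block, leaving out each library, and, chosen after seeing the data, offsets fitted to gene length.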

Additional observations from a re-analysis of the deposited data

How the results depend on the processing

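The members that fell against CTR numbered 10 (9.34% of all tested genes), with 16 by DESeq2 (15.1%) and 21 by limma voom with sample quality weights (26.7%). Without single libraries they numbered 5 to 19 (3.68% to 18.0%), namely 19 without CTR replicate 1, 6 without TDE replicate 2 and 5 without TDE replicate 3. The 1 that rose (7.57% of all tested genes) became 0 with library totals, no filter, only the 6 libraries compared, the replicate block or length offsets (2.74% to 10.6%). It became 6 by voom (25.8%) and 0 to 4 without single libraries (3.47% to 16.4%). Against NE the 16 that fell (7.21% of all tested genes) became 8 with the replicate block (3.92%) and 7 to 20 without single libraries (3.03% to 21.5%). The 0 that rose (6.73%) became 2 by DESeq2 (10.2%), 3 with the 6 libraries compared (20.7%) and 4 by voom (27.0%). It became 1 with length offsets (9.86%) and 0 to 3 without single libraries (3.25% to 19.2%). The median log2 fold change of the synthesis enzymes against CTR (-1.08) was -0.96 with library totals, -0.77 by voom, -0.90 with length offsets and -1.15 to -0.79 without single libraries, and against NE (-0.91) -0.997 by voom and -1.003 to -0.83. That of the LXR and efflux genes against CTR (0.14) was 0.33 by voom, 0.043 with length offsets and 0.14 to 0.36 without single libraries, and against NE (0.32) 0.25 with library totals, 0.25 by voom and 0.24 to 0.35. These medians kept their sign throughout. Library totals moved the median of all genes between NE and CTR to 0.12.

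Signs turned for members that did not pass with all libraries. Against CTR, Mvd turned to 0.083 with library totals, 0.37 by voom, 0.39 without CTR replicate 1 (-0.26 to 0.39 without single libraries) and 0.096 with length offsets. Under the last 3, Tm7sf2 turned to 0.051, 0.12 (-0.31 to 0.12) and 0.082, and Npc1 to -0.10, -0.20 (-0.20 to 0.26) and -0.17. By voom and without CTR replicate 1, Soat1 turned to -0.043 and -0.083 (-0.083 to 0.30) and Nr1h3 to 0.44 and 0.56. Mylip turned to -0.091 without CTR replicate 1 (-0.091 to 0.60), and Abcg1 to -0.022 (-0.022 to 0.23) without it and -0.15 with length offsets. Against NE, Pmvk turned to 0.0089 without NE replicate 3, and Ggps1 to -0.055 with library totals, -0.013 by voom, -0.0095 with length offsets and, without single libraries, -0.00085, -0.014, -0.025, -0.014 and -0.019. The cause was not tested.

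The labels number the replicates. Deviations of same-numbered libraries from their group means correlated at -0.071 to 0.072 between TDE and either other group and at -0.585 to 0.185 between NE and CTR. With 3 libraries a group and CTR replicate 1 far from the others, these correlations cannot tell whether the replicates were paired. With the number as a replicate block 8 members fell against CTR (4.46% of all tested genes) and 8 against NE (3.92%), and none passed between NE and CTR. At the depth of these libraries Ch25h is too low for a difference to be read.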
